A study of Mus musculus with 8 samples.

Results

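The 37 genes carried by the mouse mitochondrial genome were compared between small-intestinal mesenchyme of pups at postnatal day 14 (P14) and of fetuses at E17.5. They were taken as every row placed on the mitochondrial sequence, 37 of the 46635 loci in the deposited table, and comprise 13 protein-coding genes, 2 rRNA genes and 22 tRNA genes. The values came from bulk RNA-seq of 4 P14 and 4 E17.5 libraries. All mice were wild type and untreated, and in both ages the epithelium had been loosened with EDTA before RNA was taken from the remaining gut wall. The age field says E17 where the protocol and the design say E17.5, and E17.5 is written throughout. Nothing in the labels says whether a library came from 1 animal or from several, so the p-values speak of the spread among these 8 libraries, which may be technical.

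The mitochondrial genome encodes a small part of the respiratory chain and the RNAs that translate it. ND1 to ND6 and ND4L are subunits of complex I, which takes electrons from NADH, CYTB belongs to complex III, COX1 to COX3 form the core of complex IV, which passes electrons to oxygen, and ATP6 and ATP8 are part of the ATP synthase. Both strands are copied into long precursors that are cut at the tRNAs lying between the coding genes, so all genes of a strand start from shared transcripts and reach their own levels through processing and decay. Every other subunit, and every protein that copies, cuts, modifies or translates mitochondrial RNA, is encoded in the nucleus. In the intestinal wall these genes serve smooth muscle, nerve and connective tissue cells.

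Pieces of the mitochondrial genome also lie in nuclear chromosomes, and the sequences below are shown because reads from such a copy cannot be told from mitochondrial reads where the letters are the same. Each pair gives the mitochondrial gene and then its annotated copy on chromosome 1, as 60 bases from GENCODE M21 (GRCm38) transcripts, with capitals where the pair differs. The COX2 and ND3 stretches begin at the gene's first base, and the COX1 stretch runs from base 1054 to base 1113 of the gene.
COX2: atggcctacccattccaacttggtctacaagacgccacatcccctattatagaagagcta
Gm28661: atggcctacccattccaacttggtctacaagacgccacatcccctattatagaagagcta
ND3: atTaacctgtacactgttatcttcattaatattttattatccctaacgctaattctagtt
Gm28438: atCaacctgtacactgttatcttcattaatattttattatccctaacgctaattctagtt
COX1: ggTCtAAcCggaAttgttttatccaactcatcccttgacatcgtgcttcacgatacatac
Gm29216: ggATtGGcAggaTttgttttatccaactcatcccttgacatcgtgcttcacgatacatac
Over its whole length of 681 bases, Gm28661 had 0 differences from COX2. Gm28438 had 1 difference over 345 bases of ND3, T3C, counted from 1 at the gene's first base with the mitochondrial base first. Gm29216 matched COX1 over 492 bases with 6 differences, the first being T1056A and the last at base 1066, so that the rest of the copied stretch was identical.

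The tRNA genes called higher at P14 are shown next, with the anticodon in capitals, since these 3 letters identify the amino acid each one carries. TrnM is among them, but its call is without weight, as explained below. TrnL1 carries leucine, TrnM methionine, TrnW tryptophan, TrnY tyrosine, TrnG glycine and TrnE glutamate. The sequences are also GENCODE M21 transcripts, written as DNA from 5′ to 3′.
TrnL1: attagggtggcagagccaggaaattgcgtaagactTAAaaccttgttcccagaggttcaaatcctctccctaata
TrnM: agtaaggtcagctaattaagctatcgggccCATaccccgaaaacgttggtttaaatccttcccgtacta
TrnW: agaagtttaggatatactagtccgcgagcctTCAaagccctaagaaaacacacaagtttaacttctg
TrnY: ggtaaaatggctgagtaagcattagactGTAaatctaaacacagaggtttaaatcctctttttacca
TrnG: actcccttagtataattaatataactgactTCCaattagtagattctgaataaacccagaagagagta
TrnE: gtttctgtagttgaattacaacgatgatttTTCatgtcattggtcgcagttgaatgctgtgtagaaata
None of the 22 tRNA genes shared a stretch of 50 bases with an annotated transcript from outside the mitochondrial genome. Nuclear sequence outside annotated transcripts was not searched, so copies of tRNA genes there would not be seen.

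Values are FPKM, reads per gene scaled by gene length and library size. The reads behind each value could be recovered, and libraries held 17702122 to 18474346 assigned reads at P14 and 16660998 to 19496632 at E17.5. P14 replicate 1 stood apart: the authors' scaling used a library size that was 0.78 times its assigned reads, against 1.02 to 1.06 times in the other 7 libraries, and its summed epithelial markers stood at 6543 FPKM, against 159.6 to 901 FPKM in the other P14 libraries and 45.3 to 67.7 FPKM at E17.5. Results are therefore also given without it. Markers of smooth muscle, enteric neurons and fibroblasts were present in all 8 libraries, with smooth muscle markers summing to 2931, 11261, 8021 and 10066 FPKM at P14 and 5016 to 5498 FPKM at E17.5. P14 replicate 1 was thus below every E17.5 library in smooth muscle markers and the other 3 P14 libraries above, and the part of smooth muscle in the results was not tested. Enteric neuron markers summed to 166, 553, 422 and 447 FPKM at P14 and 308 to 355 FPKM at E17.5. Fibroblast markers summed to 1064, 3064, 2999 and 3079 FPKM at P14 and 2964 to 3297 FPKM at E17.5. Leukocyte markers summed to 332, 84, 192 and 246 FPKM at P14 and 169 to 203 FPKM at E17.5. Of 15 tested epithelial markers 11 were called higher at P14. Erythroid markers summed to 340.2 to 569 FPKM at P14 and 1652 to 2406 FPKM at E17.5, and adipocyte markers to 69.6, 8.17, 23.5 and 9.52 FPKM at P14 and 0.362 to 1.26 FPKM at E17.5. In bulk RNA, more cells of a type rich in mitochondria and more mitochondrial RNA per cell cannot be told apart.

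The coding genes fell into 2 ranges of level that followed their place on the map. ND1, ND2 and COX1 at one end, and ND4, ND5, ND6 and CYTB at the other, stood between 1187 and 12128 FPKM in every library. The 6 genes between COX1 and ND4 (COX2, ATP8, ATP6, COX3, ND3 and ND4L) stood between 0.766 and 164 FPKM. The 6 lower genes together took 0.0237 ± 0.00488% of assigned reads at P14 and 0.0168 ± 0.00315% at E17.5 (SD, n = 4 each), while the other 7 took 3.75 ± 0.605% at P14 and 2.65 ± 0.617% at E17.5.

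Of the 6 lower genes, 5 had nearly all of their sequence in annotated nuclear transcripts. Cut into stretches of 50 bases, COX2 shared 100% of them with transcripts outside the mitochondrial genome, COX3 99.9%, ATP6 99.5%, ND4L 98.8% and ND3 98.0%. ATP8, the lowest coding gene, shared 0%. Only annotated transcripts were searched, so a nuclear copy without annotation would not be seen, for ATP8 as for the other genes. ND4 shared 62.2% and COX1 51.1%, ND2 8.19% and ND5 7.61%, and ND1, ND6 and CYTB 0%. The annotation places the copies that share most of COX2, ATP6, COX3, ND3, ND4L, COX1 and ND4 on chromosome 1. Chromosome 2 holds Gm13340, a copy of all 1545 bases of COX1 with 37 differences. It also holds Gm13339, a copy of 510 bases of ND2 with 17 differences. How reads matching more than 1 place were treated is not stated. The levels of these genes are therefore uncertain, and the part of the counting in the low values was not tested.

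The authors' table also holds an unnamed locus on chromosome 1, from 24650296 to 24655269 on the plus strand (GRCm39), described there as similar to COX3. It had 71.6, 75.2, 36.4 and 103 FPKM at P14, and 29.6, 29.6, 35.2 and 46.2 FPKM at E17.5. The ages overlapped by 1 P14 library, and the log2 fold change of 0.94 (SE 0.307) did not pass the test (limma adjusted p = 0.058). Its level relative to COX3 was 0.818, 0.633, 0.772 and 1.22 at P14 and 0.589, 0.676, 0.661 and 0.759 at E17.5. Mitochondrial reads counted at this locus and its own transcripts cannot be told apart here.

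**Figure D1:**
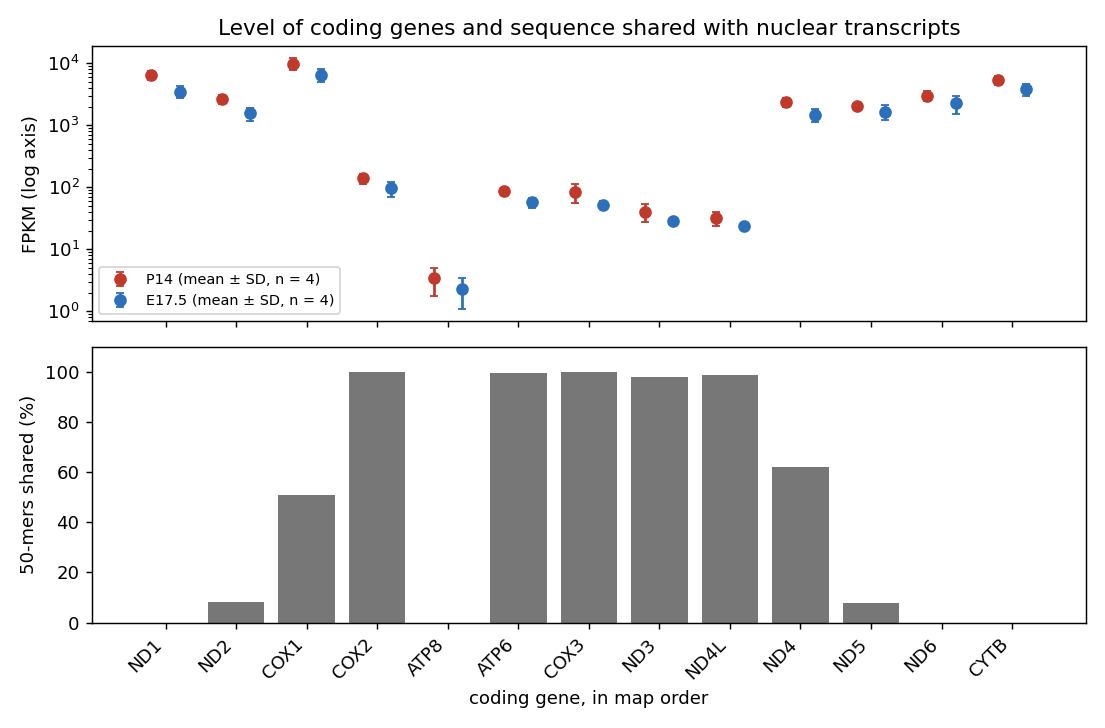
The upper panel plots the mean FPKM of each of the 13 coding genes, in map order, on a log axis, with P14 left of E17.5 and bars of 1 SD (n = 4 each), and the lower panel plots the percentage of each gene's 50-base stretches found in transcripts outside the mitochondrial genome. COX2, ATP6, COX3, ND3 and ND4L, which shared 98.0% to 100%, were low at both ages, and ATP8, which shared 0%, was the lowest. Only annotated transcripts were searched.

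At both ages COX1 was the highest coding gene. At P14 its mean of 9896 FPKM was followed by ND1 at 6448, CYTB at 5429 and ND6 at 3004 FPKM, and the ranges of COX1, ND1 and CYTB overlapped. At E17.5 COX1 averaged 6538 FPKM and was apart from CYTB at 3819 and ND1 at 3509 FPKM, whose ranges overlapped each other. ND2, ND4 and ND5 followed at P14 with 2612, 2338 and 2027 FPKM, and ND5, ND2 and ND4 at E17.5 with 1656, 1559.8 and 1487 FPKM, each overlapping its neighbours.

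**Figure D2:**
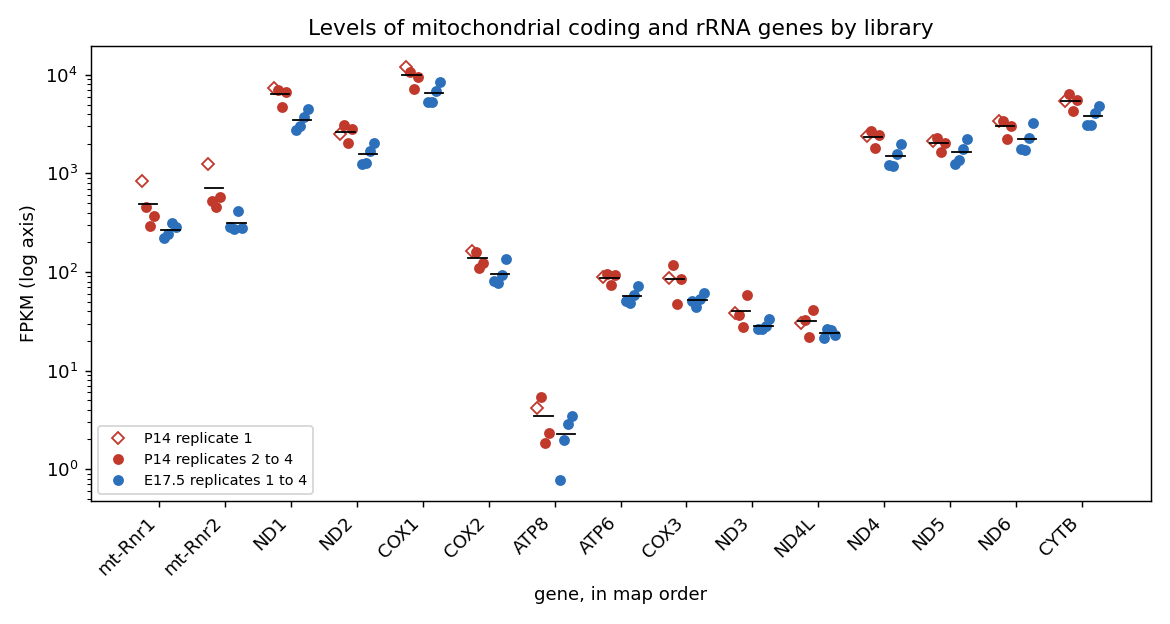
FPKM of the 2 rRNA genes and the 13 coding genes in each library, in map order, on a log axis, with P14 in red left of E17.5 in blue and black lines at the group means. P14 replicate 1, the open diamond, stands above the other libraries in mt-Rnr1 and mt-Rnr2, and is the highest P14 library in ND1 and COX1 but not in ND2, ND4, ND5 or CYTB. Its FPKM use a library size of 0.78 times its assigned reads, which raises them relative to the other libraries. In reads it was below P14 replicates 2 and 4, with 99308 against 121214 and 122539 in ND1, and 262812 against 302360 and 280516 in COX1.

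The coding genes tended to be higher at P14, and 4 passed the test: ND1, ND2 and ND4 of complex I and ATP6 of the ATP synthase. None fell, and 8 of 13 had an unadjusted p under 0.05 in limma, each with a higher mean at P14. The share of all tested genes under that unadjusted threshold was not counted, so the 8 of 13 has nothing to be set against. On the log2(FPKM + 1) scale, the log2 fold change of P14 over E17.5 exceeded 0 in 13 of 13 coding genes, with a median of 0.54 and a range of 0.32 to 0.88, where 50.1% of all 14044 tested genes were above 0. Genes called higher at P14 made up 9.72% of all tested genes and genes called lower 15.0% (limma, Benjamini-Hochberg adjusted p under 0.05 over all tested genes). The 13 genes share precursors and are not independent of one another, and members of 1 set of transcripts are no replicates of the ages. Without P14 replicate 1, 4 of 13 were again called higher and 0 lower, against 22.6% and 26.9% of all tested genes, and 13 of 13 had a fold change above 0, against 47.6%. After quantile normalization ND5, ND6 and CYTB turned below 0 and COX1, the highest gene in every library, is set to 0 by that method.

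ND1, which holds part of the quinone-binding site of complex I, lies at 2751 to 3707 on the plus strand of the mitochondrial sequence. It had 7399, 6946, 4756 and 6691 FPKM at P14, and 2752, 3034, 3734 and 4517 FPKM at E17.5. Every P14 library was above every E17.5 library. The log2 fold change was 0.88 (SE 0.196, limma adjusted p = 0.0158), and 0.81 without P14 replicate 1 (SE 0.198, limma adjusted p = 0.00993). Scaled to assigned reads it was 0.79 (limma adjusted p = 0.0219).

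ND2, a membrane subunit of complex I at 3914 to 4951 on the plus strand, had 2527, 3065, 2053 and 2804 FPKM at P14, against 1246, 1277, 1673 and 2043 FPKM at E17.5. The ages did not overlap, but the lowest P14 library at 2053 FPKM lay close to the highest E17.5 library at 2043 FPKM. Its log2 fold change was 0.76 (SE 0.194, limma adjusted p = 0.0258). ND4, another membrane subunit, lies at 10167 to 11544 on the plus strand and had 2395, 2707, 1798 and 2452 FPKM at P14 and 1222, 1187, 1572 and 1968 FPKM at E17.5. P14 replicate 3 was below E17.5 replicate 4, and the log2 fold change was 0.67 (SE 0.196, limma adjusted p = 0.0413).

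ATP6, the subunit that forms part of the proton channel of the ATP synthase, lies at 7927 to 8607 on the plus strand. It had 89.1, 94.8, 73.7 and 92.1 FPKM at P14, against 51.2, 48.0, 58.6 and 71.4 FPKM at E17.5. The ages did not overlap, and the log2 fold change was 0.61 (SE 0.15, limma adjusted p = 0.0221). Since 99.5% of its 50-base stretches are shared with nuclear transcripts, these reads may include those of a copy. In all, the ages were apart in 3 of 13 coding genes, ND1, ND2 and ATP6, and 15.6% of all tested genes had every P14 value above every E17.5 value. Without P14 replicate 1 it was again 3 of 13, against 24.8%.

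The calls of ND2, ND4 and ATP6 depended on scaling and on single libraries. Scaled to assigned reads, 1 coding gene (ND1) was called, against 7.48% of all tested genes, with adjusted p of 0.0587 for ND2, 0.0793 for ND4 and 0.0557 for ATP6 (limma). Leaving out E17.5 replicate 1, 2 or 3 gave a count of 1, beside 895, 753 and 617 of all 14044 tested genes called higher. Leaving out P14 replicate 2 or 4 also gave 1, beside 1175 and 890. Without E17.5 replicate 4 the count was 5, beside 723, and without P14 replicate 3 it was 6, beside 805.

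The other 9 coding genes did not pass the test. COX1, the catalytic subunit of complex IV, had 12128, 10733, 7234 and 9488 FPKM at P14 and 5351, 5362, 6921 and 8519 FPKM at E17.5, with P14 replicate 3 inside the E17.5 range (log2 fold change 0.60, SE 0.206, limma adjusted p = 0.0674). CYTB, the mitochondrial subunit of complex III, had 5388, 6472, 4296 and 5561 FPKM at P14 and 3118, 3121, 4148 and 4889 FPKM at E17.5 (0.52, SE 0.186, limma adjusted p = 0.0759). In both genes 1 P14 library, replicate 3, lay within the E17.5 range.

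ND5, the largest mitochondrial subunit of complex I, showed the smallest difference of the coding genes. It had 2109, 2294, 1647 and 2058 FPKM at P14 and 1261, 1359, 1789 and 2215 FPKM at E17.5, and the ages overlapped. The log2 fold change was 0.32, with a 95% interval of -0.13 to 0.77 (limma adjusted p = 0.263). ND6, the one coding gene of the minus strand, had 3389, 3387, 2212 and 3028 FPKM at P14 and 1756, 1718, 2278 and 3251 FPKM at E17.5 (0.45, SE 0.233, limma adjusted p = 0.194). ND5 and ND6 overlap by 14 bases on opposite strands, and the use of strand in counting is not stated, so ND6 reads and antisense reads from the plus-strand transcript cannot be told apart.

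The remaining members all lie in the low stretch. COX2, which accepts electrons from cytochrome c, had 110 to 164 FPKM at P14 and 76.4 to 135 FPKM at E17.5, and COX3, a structural subunit of complex IV, 47.2 to 119 FPKM at P14 and 43.8 to 60.8 FPKM at E17.5. The complex I subunit ND3 had 27.8 to 58.6 FPKM at P14 and 26.1 to 33.3 FPKM at E17.5, and ND4L, which overlaps ND4 by 7 bases, had 21.7 to 41.3 FPKM at P14 and 21.4 to 26.2 FPKM at E17.5. All 4 overlapped between the ages. ATP8 rested on 7 to 20 reads per library at P14 and 3 to 14 at E17.5, its ages overlapped, and its last 43 bases overlap ATP6.

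**Figure D3:**
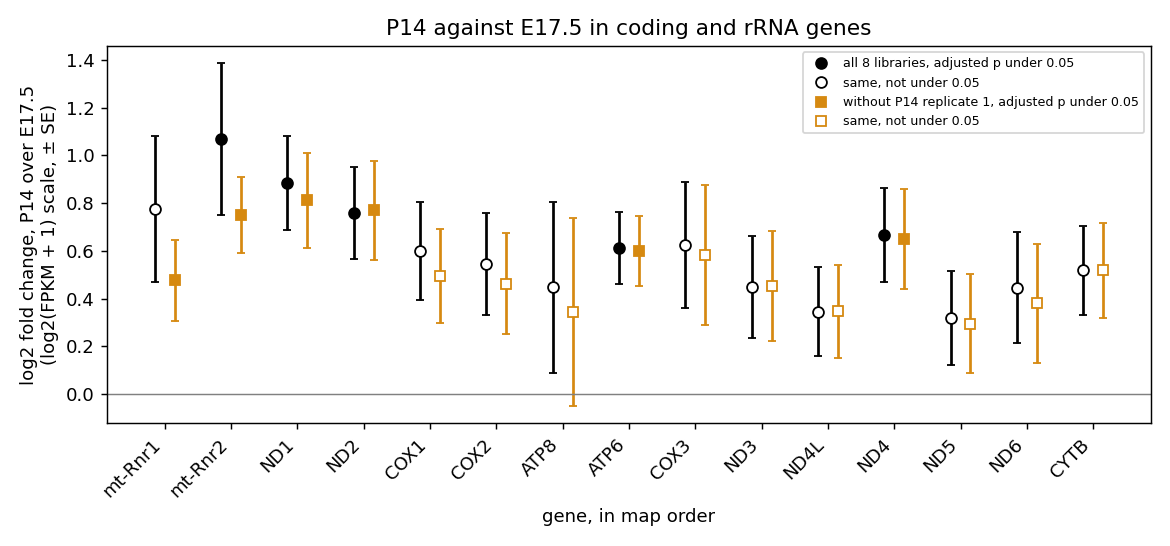
Log2 fold change (P14 over E17.5, from log2(FPKM + 1) values) with bars of 1 SE for the rRNA and coding genes in map order, from all 8 libraries (black) and without P14 replicate 1 (orange). Filled symbols have a limma adjusted p under 0.05, as in ND1, ND2, ATP6 and ND4 in both fits, and the estimates for mt-Rnr1 and mt-Rnr2 are smaller without P14 replicate 1.

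As a share of all assigned reads, coding genes took 3.42, 4.47, 3.13 and 4.07% at P14, and 2.13, 2.21, 2.86 and 3.46% at E17.5. The means were 3.77 ± 0.61% at P14 and 2.67 ± 0.621% at E17.5 (SD, n = 4 each), and the ages overlapped because E17.5 replicate 4 exceeded P14 replicates 1 and 3. The highest share was in P14 replicate 2, where summed epithelial markers were the lowest of the P14 libraries at 159.6 FPKM and summed smooth muscle markers the highest at 11261 FPKM. P14 replicate 1, with 6543 FPKM of epithelial and 2931 FPKM of smooth muscle markers, had the third highest share of the P14 libraries. The part of these cell types in the shares was not tested.

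**Figure D4:**
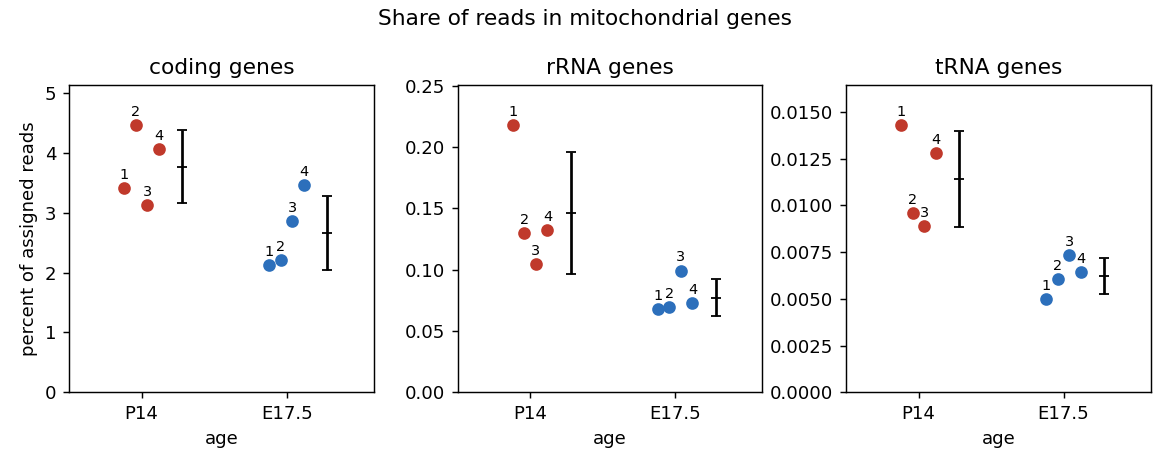
Percent of assigned reads in the 13 coding, 2 rRNA and 22 tRNA genes per library, with P14 left of E17.5, replicate numbers above the points and the mean with 1 SD beside them (n = 4 each). The ages overlap in coding genes and are apart in rRNA and tRNA genes, where P14 replicate 1 is the highest library.

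Ratios between mitochondrial transcripts do not depend on how a library is scaled, and many of them differed between the ages. The ratio of ND1 to ND5 was 3.51, 3.03, 2.89 and 3.25 at P14, against 2.18, 2.23, 2.09 and 2.04 at E17.5. The lowest P14 ratio was well above the highest E17.5 ratio, and without P14 replicate 1 the P14 mean was 3.06 ± 0.184 (SD, n = 3), against 2.14 ± 0.0879 at E17.5 (SD, n = 4). Relative to ND5, 5 of the other 6 genes outside the low stretch (ND1, ND2, COX1, ND4 and CYTB) were higher in every P14 library than in every E17.5 library, where 3.62% of all other tested genes were. ND5 was taken as the denominator after its values were seen, and since it had the smallest fold change of the coding genes this favours ratios that are higher at P14. Among all 21 pairs of the 7 genes, the ages were apart in 14, given as a description. The share of such pairs among other genes was not counted, so whether 14 of 21 is many cannot be said.

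ND2 over ND5 was 1.2, 1.34, 1.25 and 1.36 at P14 and 0.988, 0.94, 0.935 and 0.923 at E17.5. ND4 over ND5 was 1.14, 1.18, 1.09 and 1.19 at P14 and 0.969, 0.874, 0.879 and 0.889 at E17.5. Both ratios lay above 1 in all P14 libraries and below 1 in all E17.5 libraries. COX1 over ND5 was 4.39 to 5.75 at P14, with P14 replicate 1 the highest, and 3.85 to 4.24 at E17.5, and CYTB over ND5 was 2.55 to 2.82 at P14 and 2.21 to 2.47 at E17.5. ND6 over ND5 overlapped, with 1.34 to 1.61 at P14 and 1.26 to 1.47 at E17.5.

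As a share of the summed FPKM of the 7 genes, ND1 made up 20.9, 19.5, 19.8 and 20.9% at P14, against 16.5, 17.8, 16.9 and 16.5% at E17.5. ND5 made up 5.97, 6.44, 6.87 and 6.41% at P14, against 7.55, 7.97, 8.09 and 8.08% at E17.5, and ND6 9.22 to 9.59% at P14, against 10.1 to 11.9% at E17.5. ND1 thus took a larger part of the coding transcripts at P14, and ND5 and ND6 a smaller one, with the ages apart in each. COX1, the largest part, made up 34.3, 30.1, 30.1 and 29.6% at P14 and 31.1 to 32.0% at E17.5, and the ages overlapped through P14 replicate 1 alone. Without that library the P14 shares of COX1 were all below those at E17.5, while those of ND2 (8.56 to 8.74% at P14, against 7.46 to 7.56% at E17.5) and ND4 (7.49 to 7.64% at P14, against 6.96 to 7.32% at E17.5) were all above. Across the 7 genes, the log2 fold change tended to be smaller further from the rRNA genes. Spearman's rho between position and fold change was -0.82 (n = 7), and -0.68 without P14 replicate 1. It was weaker over all 13 coding genes, at -0.61, and -0.45 without that library. Over the 12 coding genes of the plus strand, which leave out ND6, it was -0.57, and -0.43 without that library. These are descriptions, since the points share libraries and precursors.

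**Figure D5:**
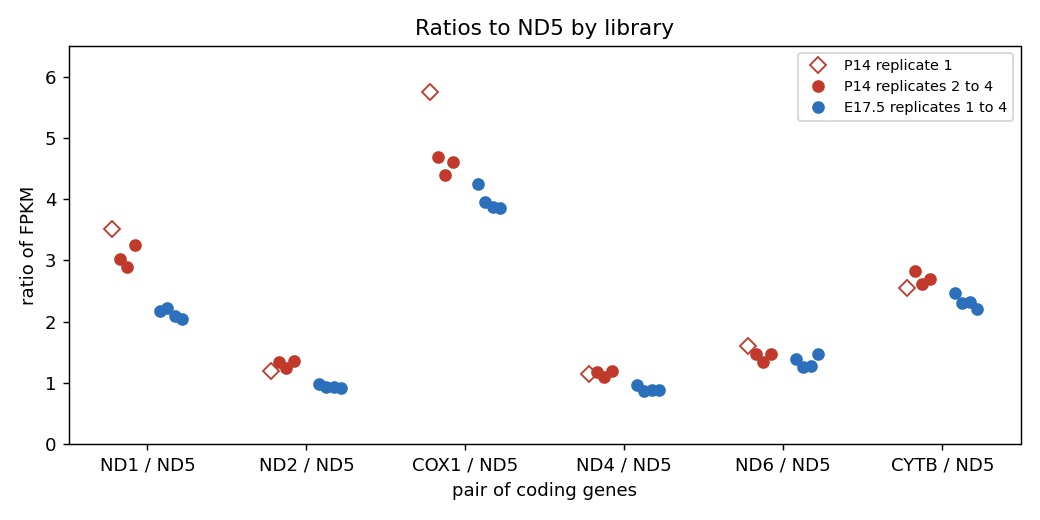
Ratio of FPKM of 6 coding genes to ND5 in each library, with P14 in red left of E17.5 in blue and P14 replicate 1 as an open diamond. The ages are apart in every ratio except that of ND6, and the gap is widest for ND1.

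The 2 rRNA genes, which form the RNA of the small and the large subunit of the mitochondrial ribosome, were highest in P14 replicate 1. Large-subunit mt-Rnr2, at 1094 to 2675 on the plus strand, had 1259, 529, 454 and 581 FPKM at P14, against 283, 274, 416 and 278 FPKM at E17.5. The ages did not overlap, and the log2 fold change was 1.07 (SE 0.317, limma adjusted p = 0.0428). Without P14 replicate 1 it was 0.75 (SE 0.16, limma adjusted p = 0.00538), a smaller difference with a smaller error. The call was lost without any single E17.5 library and without P14 replicate 2 or 4, with adjusted p between 0.0548 and 0.108 in those fits.

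Small-subunit mt-Rnr1, at 70 to 1024 on the plus strand, had 836, 453, 290.2 and 369.6 FPKM at P14 and 221, 241, 311 and 285 FPKM at E17.5. P14 replicate 3 lay within the E17.5 range, and the gene did not pass the test with all 8 libraries (log2 fold change 0.78, SE 0.306, limma adjusted p = 0.1). It passed without P14 replicate 1 (0.48, SE 0.17, limma adjusted p = 0.0458). So 1 of 2 rRNA genes was called higher with all libraries, against 9.72% of all tested genes, and 2 of 2 without P14 replicate 1, against 22.6%.

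Together the rRNA genes took 0.218, 0.13, 0.105 and 0.132% of assigned reads at P14, against 0.0675, 0.0692, 0.0993 and 0.0728% at E17.5, and the ages did not overlap. As a share of summed FPKM the ages did overlap, with P14 replicate 3 at 0.212% and E17.5 replicate 3 at 0.218%. Relative to coding reads, rRNA reads came to 6.37% in P14 replicate 1, against 2.9 to 3.36% in the other P14 libraries and 2.11 to 3.47% at E17.5. P14 replicate 1 was therefore set apart in rRNA relative to mRNA, while the other P14 libraries lay within the E17.5 range. It is also the library with the highest summed epithelial markers, at 6543 FPKM, and the part of the epithelium in this was not tested. Per length, mt-Rnr2 stood at 0.0761 to 0.17 times ND1 at P14 and 0.0616 to 0.111 times ND1 at E17.5. The FPKM of mt-Rnr2 was thus below that of ND1 in every library. How RNA was selected before sequencing is not given here, so rRNA values relative to coding genes are not read as levels in the tissue.

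The tRNA genes are 59 to 75 bases long and their reads were few. They took 0.0143, 0.0096, 0.00892 and 0.0128% of assigned reads at P14, against 0.005, 0.00604, 0.00735 and 0.00645% at E17.5, with no overlap between the ages. Reads in a tRNA row may come from the mature tRNA or from a precursor that still contains it, and the table cannot tell these apart. TrnQ, TrnA, TrnN, TrnC, TrnY, TrnS1, TrnE and TrnP lie on the minus strand. As the use of strand in counting is not stated, their reads and antisense reads from the plus-strand transcript cannot be told apart. TrnP, the proline tRNA at the end of the map, was the highest, with 1586, 493, 472 and 618 FPKM at P14 and 292, 369, 346 and 491 FPKM at E17.5. It was not called with all libraries (limma adjusted p = 0.119) and was called without P14 replicate 1 (log2 fold change 0.51, SE 0.175, limma adjusted p = 0.0396).

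Of the 22 tRNA genes, 6 were called higher at P14, 0 lower, 10 were tested and not called, and 6 did not reach 1 FPKM in 4 libraries and were not tested. Over all tested genes 9.72% were called higher and 15.0% lower. TrnF, TrnS1, TrnD and TrnK had 0 reads in all 8 libraries, which allows up to 3 reads in each. TrnV had 2 reads in E17.5 replicate 2 and 0 elsewhere. TrnQ had 0, 4, 2 and 9 reads at P14 and 1, 1, 1 and 0 at E17.5. A tRNA gene that reached the filter through its P14 values alone had to differ, so the 6 of 16 tested is no count over all members.

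TrnL1, a leucine tRNA directly between mt-Rnr2 and ND1 with no gap on either side, had the largest fitted fold change of the tested members on the log2(FPKM + 1) scale. It had 82.7, 118, 80.4 and 164 FPKM at P14, against 25.0, 20.0, 21.8 and 8.03 FPKM at E17.5, from 87 to 236 reads per library at P14 and 12 to 36 at E17.5. The log2 fold change was 2.56 (SE 0.372, limma adjusted p = 0.00342), and 2.68 without P14 replicate 1 (SE 0.423, limma adjusted p = 0.00264). Relative to its neighbour ND1 it stood at 0.0112, 0.0171, 0.0169 and 0.0246 at P14, against 0.00909, 0.00658, 0.00584 and 0.00178 at E17.5, again with no overlap. Relative to mt-Rnr2 the ages overlapped by P14 replicate 1, where the ratio was 0.0657, against 0.177 to 0.283 in the other P14 libraries and 0.0289 to 0.0883 at E17.5.

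TrnE, the glutamate tRNA between ND6 and CYTB on the minus strand, had 115, 161, 137 and 206 FPKM at P14, against 56.6, 49.2, 84.1 and 43.7 FPKM at E17.5. All P14 libraries were above all E17.5 libraries (log2 fold change 1.40, SE 0.245, limma adjusted p = 0.00652). TrnG, the glycine tRNA between COX3 and ND3, had 8.39, 8.87, 13.3 and 13.8 FPKM at P14, against 5.36, 0.847, 2.33 and 2.22 FPKM at E17.5 (1.82, SE 0.358, limma adjusted p = 0.01). TrnG rested on 8 to 18 reads per library at P14 and 1 to 7 at E17.5.

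TrnM, the methionine tRNA that precedes ND2, had 4, 2, 6 and 3 reads at P14 and 0 reads in all E17.5 libraries. It entered the test through its P14 values alone and so had to differ, which leaves its call without weight, and no fold is given, because up to 3 reads per library are allowed by a count of 0. TrnW and TrnY lie in the group of tRNA genes between ND2 and COX1 that also holds TrnA, TrnN and TrnC, and around the origin from which the light strand is copied. TrnW had 62.8, 28.6, 43.0 and 63.2 FPKM at P14 and 13.2, 12.9, 29.1 and 6.74 FPKM at E17.5, overlapping by 1 library of each age (log2 fold change 1.71, SE 0.422, limma adjusted p = 0.0228). TrnY had 66.0, 39.3, 38.2 and 56.9 FPKM at P14 and 19.4, 20.6, 34.6 and 10.5 FPKM at E17.5, with no overlap (1.27, SE 0.341, limma adjusted p = 0.0308).

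The calls of TrnW and TrnY were lost without E17.5 replicate 1, 2 or 4 and without P14 replicate 3 or 4, with limma adjusted p between 0.0506 and 0.0727. They were also lost with no filter on low values (limma adjusted p = 0.0503 for TrnW and 0.0653 for TrnY), and that of TrnY with P14 replicate 1 left out and TPM rescaling (limma adjusted p = 0.0589). Those of TrnL1, TrnG and TrnE held in all 21 other settings tried. Among the tested tRNA genes that were not called, TrnN and TrnC had the most reads after TrnP, with 177 to 361 and 193 to 388 FPKM at P14 and 105 to 225 and 164 to 259.7 FPKM at E17.5. TrnA and TrnT, with 0 reads in 2 E17.5 libraries each, and TrnI, with 0 reads in 3, did not pass. TrnR passed without P14 replicate 1 (log2 fold change 1.84, SE 0.548, limma adjusted p = 0.0309), and TrnH, TrnS2 and TrnL2 did not pass in either fit.

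The nuclear partners of the mitochondrial subunits were higher at P14 in most cases. Of 74 tested nuclear subunits of complexes I, III, IV and V, 63 were called higher and 1 lower, with a median log2 fold change of 0.68, beside 4 of 13 mitochondrial coding genes with a median of 0.54 and 9.72% of all tested genes. Complex I had 31 of 36 called higher, complex III 8 of 9, complex IV 12 of 14 and the ATP synthase 12 of 15. The difference between the nuclear and the mitochondrial genes was not tested. Without P14 replicate 1, 68 of the 74 were called higher and 1 lower, against 22.6% and 26.9% of all tested genes. After rescaling to TPM, 43 were called higher and 1 lower, against 6.24% and 19.9% of all tested genes.

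Ndufs6, an accessory subunit of complex I, had 55.8, 81.6, 62.5 and 54.9 FPKM at P14, against 27.4, 29.1, 17.7 and 16.0 FPKM at E17.5. The log2 fold change was 1.48 (SE 0.226, limma adjusted p = 0.00408), and Ndufa2 rose by 1.37 (SE 0.242, limma adjusted p = 0.00678). Ndufb9 was the highest complex I subunit, with 154 ± 10.6 FPKM at P14 and 69.3 ± 7.6 FPKM at E17.5 (SD, n = 4 each), a log2 fold change of 1.14. In complex III, Uqcr11 and Uqcrq rose by 1.54 and 1.32 (limma adjusted p = 0.0033 and 0.00309), and Uqcrh, the highest, rose by 0.50 (limma adjusted p = 0.00957).

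Within complex IV the pair of isoforms of subunit 4 moved in opposite directions. Cox4i1, the general form and the highest of the list, had 657, 671, 578 and 608 FPKM at P14, against 353, 337, 303 and 335 FPKM at E17.5 (log2 fold change 0.92, SE 0.0934, limma adjusted p = 0.000899). Cox4i2, the form known from lung and from cells that respond to low oxygen, had 4.9, 10.2, 9.98 and 6.97 FPKM at P14, against 22.4, 22.7, 19.5 and 23.6 FPKM at E17.5 (-1.40, SE 0.209, limma adjusted p = 0.00379). The ages did not overlap in either gene. Cox5b and Cox8a, 2 small structural subunits, rose by 1.39 and 1.11 (limma adjusted p = 0.00208 and 0.00186), and in the ATP synthase Atp5k, Atp5g3 and the catalytic subunit Atp5b rose by 1.23, 1.01 and 0.49 (limma adjusted p = 0.00226, 0.00102 and 0.0112).

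The nuclear genes that express the mitochondrial genome showed no such difference. Over the lists of replication, transcription, RNA processing, tRNA charging and translation, 4 of 95 tested genes were called higher and 2 lower, against 9.72% and 15.0% of all tested genes, with a median log2 fold change of 0.022. None of 8 transcription genes was called and 0 had an unadjusted p under 0.05 (limma), a threshold at which the share of all tested genes was not counted. Tfam, which packages mitochondrial DNA and starts its transcription, had 15.1, 9.71, 9.92 and 10.2 FPKM at P14 and 10.3, 10.1, 10.4 and 11.8 FPKM at E17.5 (log2 fold change 0.052, SE 0.148, limma adjusted p = 0.819). P14 replicate 1, whose FPKM are raised by the smaller library size used for it, was the highest library in FPKM. The other 3 P14 libraries lay between 9.71 and 10.2 FPKM, below the E17.5 range or at its low end. Of 40 RNA processing genes, Trmt61b, known in human cells as a methyltransferase of mitochondrial RNA, rose by 0.69 and Fastkd1 fell by 0.48 (limma adjusted p = 0.00417 and 0.0132), and Rexo2, the highest, did not pass (limma adjusted p = 0.684), but passed without P14 replicate 1 (0.46, limma adjusted p = 0.0216).

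Among 22 tested synthetases, Fars2, which charges the phenylalanine tRNA, was called higher (0.40, limma adjusted p = 0.017), with an adjusted p of 0.0566 without E17.5 replicate 3. Gars, the glycine synthetase and the highest of them, was lower without passing the test, with 44.8 ± 2.97 FPKM at P14 and 54.6 ± 1.96 FPKM at E17.5 (SD, n = 4 each; limma adjusted p = 0.0564, and 0.00936 without P14 replicate 1). Of 11 translation factors, Tsfm, which recycles the elongation factor Tu, was called higher (0.54, limma adjusted p = 0.0227, and up to 0.07 without E17.5 replicate 2, 3 or 4 or P14 replicate 2). Its partner Tufm had 34.7 ± 5.51 FPKM at P14 and 31.8 ± 3.03 FPKM at E17.5 (SD, n = 4 each) and did not pass (limma adjusted p = 0.559). Without P14 replicate 1, the 95 genes gave 9 calls higher and 15 lower, against 22.6% and 26.9% of all tested genes.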

How the data were processed

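The authors deposited 1 FPKM per gene and library. Tools named in the submitters' processing notes are CASAVA, fastp, HISAT2, featureCounts and DESeq2 1.20.0, with genome build GRCm39 and no roles; the step behind the FPKM is not stated. Gene lengths and coordinates are the deposited table's. Reads were recovered from FPKM times length, which is a whole number of library-specific steps in 100% of values (tolerance 1e-06). An absent read allows up to 3 reads, covering counting error only.

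Genes with FPKM of 1 or more in 4 of 8 libraries were tested (14044) on log2(FPKM + 1) with limma 3.58.1 (R 4.3.3, statmod 1.5.0), trend and robust moderation, two-sided, Benjamini-Hochberg adjusted over all tested genes and called under 0.05. The pseudocount of 1 makes fold changes of low genes smaller. In simulated data for P14 against E17.5 (14044 genes, 200 changed), 93% of log2 changes of 1 were called. The changed genes were drawn from those above a set level. Both ages were given the spread of the E17.5 libraries, which correlated with one another at 0.974 to 0.987. The P14 libraries correlated with one another at 0.78 to 0.974, so the 93% may be too high for these data. Sums over members and ratios have no test. Loci with no gene name took 0.183 to 0.246% of reads.

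All 37 members had the same positions in the RefSeq GRCm38.p6 and GENCODE M21 tables. Of 256 list symbols, 237 matched by name, 16 by synonym and 3 not at all. Members, lists, the rule for named genes and settings were chosen with earlier results of these data known. Coding and rRNA genes were all named, tRNA genes when called, highest or at 0 in a library, and each nuclear list by up to 2 called genes with the largest change in each direction plus its highest. TrnQ, TrnP's neighbours in level, TrnR, TrnH, TrnS2 and TrnL2 are named to account for every member. Alternatives were other pseudocounts, filters, scalings, a replicate block and leaving out libraries.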

Additional observations from a re-analysis of the deposited data

Results flagged for a closer look

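Of 68 groups of 4 libraries looked at, 8 had 1 library whose gap to its nearest neighbour, as a share of the group's range, was above Dixon's 95% critical value, and chance flags about 1 in 20 such groups. At P14, replicate 1 was far above the others in mt-Rnr2 (0.841; 1259 FPKM, against 454 to 581), in TrnT (0.835; 10.6 FPKM, against 1.64 to 3.12) and in TrnP (0.869; 1586 FPKM, against 472 to 618). At E17.5, replicate 3 was far above the others in mt-Rnr2 (0.935; 416 FPKM, against 274 to 283), in TrnC (0.907; 259.7 FPKM, against 164 to 173), in the rRNA share of assigned reads (0.833; 0.0993%, against 0.0675 to 0.0728%) and in TrnI (1.0; 6 reads, against 0). At E17.5, replicate 2 was above the others in TrnR (0.849; 8 reads, against 2 to 3).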

How the results depend on the processing

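Over 21 other settings, 646 values of the members' fold changes were recomputed: 563 kept their direction and their side of the threshold, 56 lost the call, 18 gained it and 9 changed direction. TrnH, at -0.16 with all libraries, was -0.50 to 0.37 leaving out 1 library (0.055 without E17.5 replicate 2, 0.37 without P14 replicate 1), and 0.38, 0.31 and 0.41 with that library left out and scaling to assigned reads, to TPM or by median of ratios (these last 3 were chosen after seeing the data). TrnL2 was -0.11 to 1.19 leaving out 1 library, below 0 without P14 replicate 4. Quantile normalization gave -0.32 for ND5, -0.087 for ND6 and -0.23 for CYTB; COX1, the highest gene in every library, is set to a difference of 0 by it. Called coding genes numbered 2 with no filter, 1 scaled to assigned reads, 1 scaled to reads outside the mitochondrial genome, 1 after TPM rescaling, 1 after quantile normalization, and 1 to 6 leaving out 1 library. Called rRNA genes numbered 0 with no filter, 0 to 2 leaving out 1 library, and 2 with P14 replicate 1 left out and scaling to assigned reads or by median of ratios. Called tRNA genes numbered 4 to 8 leaving out 1 library. TPM rescaling shifts the median fold change over all tested genes by -0.16.

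Over all tested genes, 877 were called higher after TPM rescaling and 617 to 3176 leaving out 1 library, and 1118 to 3782 were called lower. With P14 replicate 1 left out, 3245 higher and 3718 lower were called when scaled to assigned reads, 2759 and 4387 after TPM rescaling, and 3515 and 3388 by median of ratios. Of the nuclear lists, 45 genes were called higher after TPM rescaling. Lower calls there numbered 3 with the stricter filter, 14 scaled to assigned reads, 11 scaled to reads outside the mitochondrial genome, 19 after TPM rescaling, 10 after quantile normalization, 3 to 21 leaving out 1 library, and 21, 32 and 18 with P14 replicate 1 left out and the 3 scalings in the order above. As a share of summed FPKM in place of reads, the P14 minus E17.5 difference was 2.05 percentage points for coding, 0.121 for rRNA and 0.181 for tRNA genes. By that measure the ages overlapped in coding and rRNA genes and were apart in tRNA genes. The causes were not tested.

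Replicate numbers are shared between the ages, but correlations of same-numbered libraries' deviations were -0.033, 0.00947, -0.0641 and -0.0492, so the numbers do not pair them. With the replicate block, 695 genes were called higher and 1049 lower, with 0 coding (ND1 at limma adjusted p = 0.0583), 0 rRNA and 5 tRNA genes (TrnW at 0.0646 and TrnY at 0.0864 lost the call, and TrnT at 0.0379 gained it), and 1 lower among the nuclear lists. ATP8 and most tRNA genes rest on few reads, and what difference could be detected at that depth was not tested.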

Other observations

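Among 10 tested nuclear regulators of mitochondrial formation, 2 were called higher and 3 lower, against 9.72% and 15.0% of all tested genes, with a median log2 fold change of -0.21. Esrra, a nuclear receptor that drives respiratory genes, had 89.8, 20.3, 32.1 and 20.0 FPKM at P14, against 9.09, 9.44, 7.57 and 7.01 FPKM at E17.5 (1.88, SE 0.442, limma adjusted p = 0.0195, and 1.41, limma adjusted p = 0.000421, without P14 replicate 1). All P14 libraries were above all E17.5 libraries, and P14 replicate 1, with 6543 FPKM of summed epithelial markers, was the highest. The part of the epithelium in its level was not tested. Without E17.5 replicate 3 or 4 the call was lost, with limma adjusted p up to 0.0593. Its coactivator Ppargc1a had 2.05, 1.79, 1.6 and 1.8 FPKM at P14 and 0.978, 1.03, 1.1 and 1.5 FPKM at E17.5 (0.39, SE 0.114, limma adjusted p = 0.0408), and its call was lost without any single library other than P14 replicate 1 and E17.5 replicate 4, with adjusted p up to 0.106.

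Pprc1, a relative of Ppargc1a, and Gabpa, a transcription factor of respiratory genes, were called lower at P14. Pprc1 had 6.63 ± 1.2 FPKM at P14 and 10.1 ± 0.755 FPKM at E17.5 (SD, n = 4 each; limma adjusted p = 0.0216, and up to 0.0678 without E17.5 replicate 1, 2 or 3 or P14 replicate 3). Gabpa had 15.2 ± 0.589 FPKM at P14 and 21.5 ± 2.34 FPKM at E17.5 (SD, n = 4 each; limma adjusted p = 0.0153, and 0.0567 without E17.5 replicate 3). Of 14 genes that copy or maintain mitochondrial DNA, Tk2, a thymidine kinase, was called higher (0.53, limma adjusted p = 0.0292, and up to 0.0817 without any single library other than P14 replicate 1 or 2), and Exog, a nuclease, lower (-0.57, limma adjusted p = 0.0136). Mpv17, the highest of that list, had 40.4 FPKM in P14 replicate 1, 19.4 to 23.5 FPKM in the other P14 libraries and 17.6 to 21.4 FPKM at E17.5, and did not pass (limma adjusted p = 0.219).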
